A study of Mus musculus with 4 samples.

Results

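The 10 AP-1 genes Fos, Fosb, Fosl1, Fosl2, Jun, Junb, Jund, Atf3, Batf and Batf3 were followed through every peak of accessible chromatin that the deposited annotation assigns to them. A peak belongs to one of these genes where its gene name is that gene, which in this table is the gene with the nearest transcription start site (TSS). The rule gave 64 of 70436 peaks, spread over 10 of 18479 genes with a peak, and all 64 entered the test. Jun had 18 of them, Fos 16, Fosb 7, Junb, Fosl2 and Batf 4 each, Jund, Atf3 and Batf3 3 each, and Fosl1 2. Of the 64 peaks 50 are annotated as intergenic, 6 as promoter-TSS, 3 as exon, 2 as intron, 2 as transcription termination site and 1 as 3′ UTR. A peak's assignment to a gene is a matter of distance and does not show that the site acts on that gene.

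AP-1 is a family of dimeric transcription factors with a basic leucine zipper, the domain through which they pair and hold DNA. FOS proteins pair with JUN proteins, JUN proteins also pair with one another, and ATF3 and the BATF proteins join as further partners. Many of these genes are immediate early genes, switched on within minutes of a growth factor or stress signal through MAP kinases, and their protein products bind distal enhancers in many cell types.

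The libraries came from melb-a, a mouse line of melanoblasts, the precursors of pigment cells, grown with stem cell factor and Fgf2. Chromatin was profiled by ATAC-seq, in which a transposase cuts and tags open DNA. The Hira arm held 2 libraries, 1 with lentiviral hairpin shHIRA I and 1 with shHIRA II, both directed at Hira, which encodes a histone chaperone. The control arm held 2 libraries, 1 with shLuciferase and 1 with shScramble, and every library is labelled wild type and came from cells infected with lentivirus and selected with puromycin. RNA was not analysed here, so how far each hairpin lowered Hira was not measured.

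Total tags in peaks were 14718721 under shHIRA I and 8910983 under shHIRA II, against 20716859.5 under shLuciferase and 15804532 under shScramble. Levels below are CPM, the tags of a peak scaled to a common total of tags in peaks. The 2 Hira libraries differed from each other beyond counting noise, with a chi-square of 4.66 per AP-1 peak, and the controls did not, at 1.01 (6.24 and 0.933 over all peaks). The controls are therefore counted as 1 sample, giving n = 2 hairpins for Hira and n = 1 for control, and both control values are printed. The test of every peak, edgeR's quasi-likelihood test, kept all 4 libraries, and with the controls summed to 1 sample it called 0 peaks of any gene, with 15569 of all peaks and 16 of the 64 AP-1 peaks at an unadjusted p under 0.05. P-values measure only the spread between these libraries, 1 per hairpin, which may be technical. Of the listed melanoblast markers, Mitf, Pax3, Sox10 and Kit had TSS peaks of 22.7 to 66.9 CPM in all 4 libraries. The pigment enzyme gene Dct had 14.2 and 23.3 CPM at its TSS in Hira cells against 42.8 and 39.5 CPM in control cells. Tyrp1 had 9.78 and 6.67 CPM in Hira cells against 11.4 and 11.96 CPM in control cells, and Tyr was near the floor at 0.849 and 0.513 CPM in Hira cells against 1.65 and 1.70 CPM in control cells. The nearest peaks of Ednrb and Mlana lay 47.4 and 15.7 kb from the TSS, and Pmel had no peak.

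The first sequences shown are the 250 bases before the TSS of Jun, Fos and Atf3 (RefSeq, build GRCm38.p6, each read 5′ to 3′ towards the gene), because Jun and Fos carry the family's best-known regulated promoters and Atf3 had the one peak at a TSS that passed the test. Each of the 3 windows lies wholly inside an accessible peak. Capitals mark the motifs found among 6 searched on both strands: the AP-1 site TGACTCA, the cyclic AMP response element TGACGTCA, the AP-1-like site TGACATCA, the core TGACGT of the response element, the CArG box, and TATAAA.
Jun, chr4:95052223-95052472, minus strand: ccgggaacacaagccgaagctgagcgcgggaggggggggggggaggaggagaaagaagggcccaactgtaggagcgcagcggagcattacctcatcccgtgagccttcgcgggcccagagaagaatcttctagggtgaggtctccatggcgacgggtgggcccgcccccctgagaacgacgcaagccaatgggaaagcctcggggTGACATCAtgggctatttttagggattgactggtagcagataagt
Fos, chr12:85473640-85473889, plus strand: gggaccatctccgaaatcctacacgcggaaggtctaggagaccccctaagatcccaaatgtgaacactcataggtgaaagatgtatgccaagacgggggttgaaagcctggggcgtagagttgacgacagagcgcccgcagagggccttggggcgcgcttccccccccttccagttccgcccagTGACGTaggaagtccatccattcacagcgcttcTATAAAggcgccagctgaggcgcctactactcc
Atf3, chr1:191183334-191183583, minus strand: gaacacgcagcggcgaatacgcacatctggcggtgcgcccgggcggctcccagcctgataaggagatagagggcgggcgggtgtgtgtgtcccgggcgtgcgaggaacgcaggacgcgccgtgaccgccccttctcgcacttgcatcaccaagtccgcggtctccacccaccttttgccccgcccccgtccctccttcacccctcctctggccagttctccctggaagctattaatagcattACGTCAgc
The capitals of Jun are TGACATCA, 45 to 38 bases before the TSS, a site held by 2.93% of 32851 mouse promoters in the same window. In Fos they are the core TGACGT at 66 to 61 bases and TATAAA at 33 to 28 bases before the TSS, and in Atf3 the same core on the other strand, read as ACGTCA, at 8 to 3 bases. The core occurs in 6.47% of all promoters and TATAAA in 12.4%. Of the 9 AP-1 promoters with a sequence here, 3 held the core (Atf3, Batf and Fos), and none of the 9 held TGACTCA, TGACGTCA or a CArG box in these bases, against 4.46%, 1.55% and 1.47% of all promoters. Bases farther from the TSS were not searched, so a site of these promoters outside the 250 bases would be missed. These matches describe letters and were not tested for binding.

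Across the 64 peaks, 11 were higher and 6 were lower in Hira shRNA than in control shRNA cells at an adjusted p under 0.05, which is 26.6% of them. Among all 70429 peaks tested, 25.3% passed, 14.4% as higher and 11% as lower, so the share among AP-1 genes was near that of the genome. The median log2 fold change was 0.05 over AP-1 peaks and 0.00 over all peaks, and the AP-1 values ran between -1.66 and 2.59. The calls were unevenly placed among the genes. Jun held 5 of the 6 lower peaks, and its 18 peaks had a median of -0.41. The other 9 genes together had 10 higher and 1 lower of 46 peaks, with a median of 0.16. Jun was set apart from them after the values were seen, so this contrast follows from that choice. Whether the genes differ was not tested. Fosb, Fosl2 and Batf, grouped because they had no call, had 0 called peaks of 15 in edgeR's quasi-likelihood test. At an unadjusted p under 0.05 in that test 4 were higher and 1 lower, against 15053 higher and 13229 lower of all 70429 peaks. The likelihood ratio test and edgeR's newer quasi-likelihood estimate each called 1 of the 15, the same Fosb peak. In bulk libraries a change in the share of cells with an open site and a change in openness per cell cannot be told apart.

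The split between directions depends on the scaling. With library sizes recovered from the authors' own fold changes, the median of all peaks moved to -0.26 and that of AP-1 peaks to -0.20, that of the 9 genes without Jun turned to -0.11, and the calls became 8 higher and 9 lower of 64, against 11.1% higher and 19% lower of all peaks. In the authors' deposited table, whose calls need an adjusted p under 0.01 and a log2 fold change of at least 1 in size, 7 AP-1 peaks are marked up and 7 down, against 8.48% and 11.8% of all peaks. Both Hira libraries lay above both controls at 25 AP-1 peaks and below both at 17, against 34.5% and 34.3% of all peaks.

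**Figure D1:**
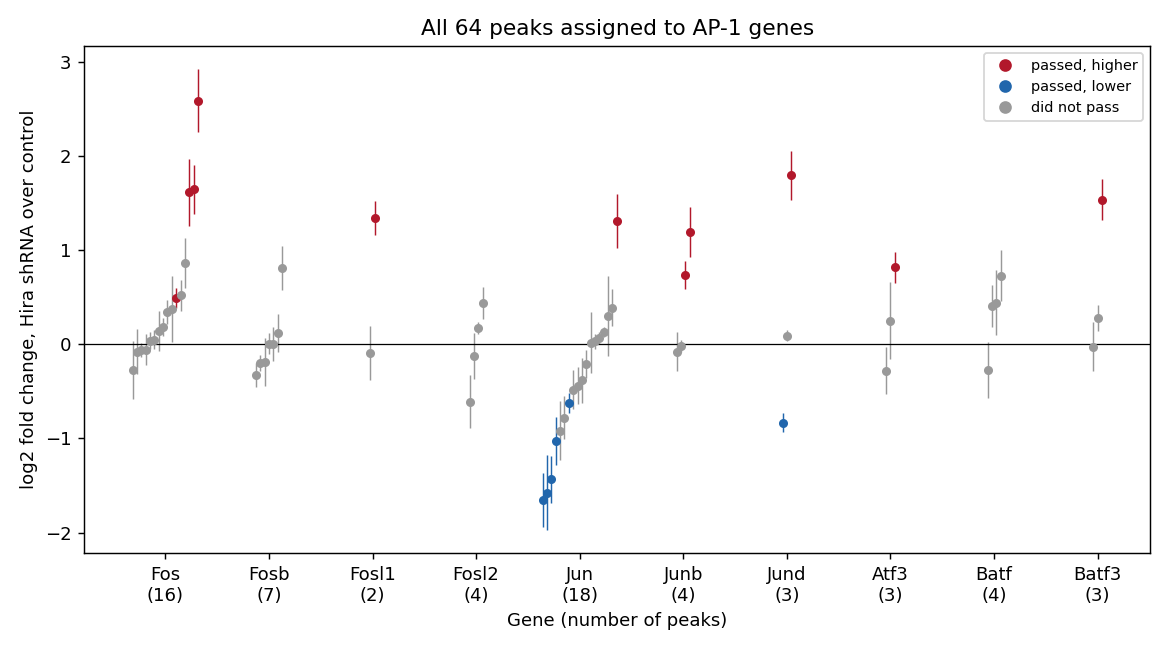
Each point is 1 of the 64 peaks assigned to an AP-1 gene, plotted by its log2 fold change of Hira shRNA over control shRNA (bars show the standard error), with genes along the x axis and the number of peaks in brackets. Red and blue points passed as higher (11) and lower (6), grey points did not pass, and 5 of the 6 blue points belong to Jun.

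Most calls lay beyond 1 kb of a TSS. Of 8 AP-1 peaks within 1 kb of a TSS 1 passed, as higher, against 5.32% higher and 2.14% lower (7.45% together) of all such peaks. Of the 56 farther out 10 were higher and 6 lower, against 16.3% higher and 12.8% lower (29% together) of all such peaks. With the exception of 1 Atf3 peak in an intron, all called AP-1 peaks are annotated as intergenic, where 32% of AP-1 peaks and 28.5% of all peaks passed. The counts were also taken by level. Of the 13 AP-1 peaks at 30 CPM or more in the controls, 0 were higher and 2 lower (15.4%). All such peaks gave 14.1%, 7.03% higher and 7.07% lower. The level was chosen after the values were seen. With the likelihood ratio test the AP-1 counts were again 0 and 2, against 795 and 1060 of all 9843 such peaks. At an unadjusted p under 0.05 in the quasi-likelihood test they were 1 and 2, against 1189 and 1570. Of the 51 AP-1 peaks under 30 CPM 11 were higher and 4 lower (29.4%, against 27.2% of all such peaks).

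The peaks nearest each TSS give the family's basal pattern. For Jund that peak starts inside the gene, with its centre 1.51 kb downstream, and covers 0 of the 250 bases before the TSS. Set per kb of peak so that genes can be compared, the level at the nearest peak was highest for Jun, at 74.9 and 75.9 CPM per kb under shHIRA I and II and 68.8 in the pooled controls. Jund followed with 67.04 and 64.5 CPM per kb under the Hira hairpins and 61.7 in controls, then Fosl2 with 56.0 and 56.2 under the Hira hairpins and 49.7 in controls. Junb, Fosb and Fos stood next in the controls at 49.5, 40.5 and 35.9 CPM per kb. In the Hira libraries Fos (34.7 and 40.2 CPM per kb) overlapped both Junb (39.6 and 55.7) and Fosb (29.7 and 35.2), so that the order of these neighbours is not resolved. Nor is that of Fosl2 and Junb in the controls, where Junb had 47.8 and 51.8 CPM per kb and Fosl2 48.8 and 50.8. Batf3, Atf3 and Fosl1 were lower still, at 15.1, 13.6 and 9.37 CPM per kb in the pooled controls, and Batf3 (16.2 and 13.6) overlapped Atf3 (13.3 and 13.96) there. Under the Hira hairpins Atf3 (27.4 and 20.4) stood above Batf3 (18.9 and 17.4). Batf had no peak within 10 kb of its TSS, and its nearest one, 17.7 kb upstream, was the lowest of the 10 in the pooled controls at 5.82 CPM per kb. Under the Hira hairpins it had 10.3 and 5.18 CPM per kb and overlapped Fosl1 (10.6 and 6.88).

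Most of these nearest peaks were close between the arms. For Jun, the founding member of its branch, the peak over the promoter sequence above (chr4:95051417-95053990) had 193 and 195 CPM under shHIRA I and II, against 176 and 178 CPM in the controls. Both Hira libraries were above both controls by a small margin, a log2 difference of 0.13 ± 0.05 (SE from the fit of all 4 libraries, n = 2 Hira hairpins, adjusted p = 0.132). The Fos TSS peak (chr12:85473498-85474652, exon) had 40.0 and 46.4 CPM in Hira cells and 40.9 and 42.3 CPM in control cells, a log2 difference of 0.05 ± 0.10 (adjusted p = 0.739). Here the groups overlapped. Fosl2, a FOS-related partner of JUN proteins, had 98.1 and 98.4 CPM in Hira cells against 85.5 and 89.1 CPM in control cells (0.17 ± 0.06, adjusted p = 0.0989). Jund, the JUN gene known for steady expression, had 120 and 115 CPM in Hira cells against 111 and 109.6 CPM in control cells (0.09 ± 0.06, adjusted p = 0.30). For each of these 4 peaks the sign turned negative under the authors' scaling, and the peak passed under neither scaling.

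Fosb, a FOS gene with a truncated splice form in brain, lay the other way at its promoter, with 16.7 and 19.7 CPM in Hira cells against 22.5 and 23.0 CPM in control cells. Both Hira values were below both controls, without passing (-0.33 ± 0.13 log2, adjusted p = 0.123). Its strongest peak, in an intron 1.57 kb downstream, had 33.4 and 35.5 CPM in Hira cells and 38.7 and 40.3 CPM in control cells (-0.20 ± 0.09, adjusted p = 0.144). At the Junb promoter the groups overlapped, with 9.99 and 14.0 CPM in Hira cells against 12.04 and 13.1 CPM in control cells (-0.08 ± 0.20, adjusted p = 0.809). Fosl1 also overlapped, with 4.65 and 3.02 CPM in Hira cells and 3.88 and 4.43 CPM in control cells (-0.09 ± 0.29, adjusted p = 0.84). Batf3, which encodes a factor needed for a lineage of dendritic cells, had 22.6 and 20.8 CPM in Hira cells against 19.4 and 16.3 CPM in control cells (0.28 ± 0.14, adjusted p = 0.196).

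Atf3, a stress-induced member that often represses, was the exception. Its TSS peak (chr1:191182384-191183595, 0.344 kb downstream by its centre, in an intron and a CpG island) had 33.2 and 24.7 CPM in Hira cells against 16.1 and 16.9 CPM in control cells. Both Hira libraries were above both controls, and the log2 fold change was 0.82 ± 0.17 (adjusted p = 0.0223). Under the authors' scaling it was 0.54 with an adjusted p of 0.104, so this call depends on the scaling, and the peak is not among the authors' calls. The other 2 Atf3 peaks, 6.74 and 10.9 kb upstream, did not pass.

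**Figure D2:**
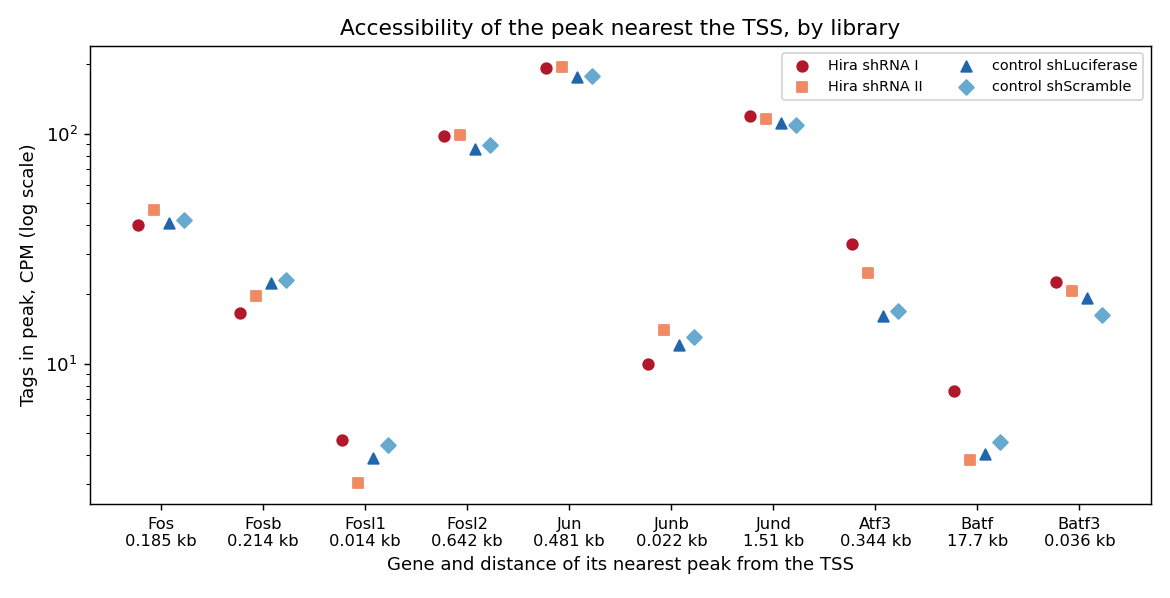
Accessibility in CPM (log scale) of the peak nearest the TSS of each AP-1 gene, with its distance under the gene name, and 1 point per library: Hira shRNA I and II, then shLuciferase and shScramble. The Atf3 points of the Hira libraries stand at 33.2 and 24.7 CPM above the controls at 16.1 and 16.9 CPM, while Jun, Fos, Fosl2 and Jund lie almost level.

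At Jun, 5 of the 6 called peaks lay more than 80 kb upstream of a level promoter, and the sixth lay 6.32 kb downstream. The next gene with a peak on the upstream side, Fggy, lies 505 kb away, and 10 of the 18 Jun peaks are more than 100 kb upstream. Of those 10, 1 was higher and 3 lower, against 16.2% higher and 17% lower among all peaks at that distance. Over the 12 peaks beyond 80 kb upstream, a distance chosen after the values were seen, the median log2 fold change was -0.55, and both Hira libraries were below both controls at 9 (75%, against 34.3% of all peaks and 41.5% of those beyond 100 kb). Summed over these 12 peaks the level was 146.2 and 146.4 CPM in Hira cells against 173 and 178 CPM in control cells.

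The most accessible of the called Jun peaks, 133 kb upstream (chr4:95185088-95186044), had 21.4 and 21.6 CPM in Hira cells against 31.2 and 34.9 CPM in control cells. The 2 hairpins gave nearly the same value, and the peak fell by 0.62 on the log2 scale (SE 0.11, adjusted p = 0.0165). The largest fall in size was 125 kb upstream (chr4:95176703-95177305), with 1.80 and 2.40 CPM in Hira cells against 5.67 and 7.28 CPM in control cells (log2 fold change -1.66 ± 0.28, adjusted p = 0.0165). That peak is annotated to an L1ME2 repeat, whose copies can share reads. Another, 181 kb upstream, had 1.46 and 1.65 CPM in Hira cells against 4.31 and 4.02 CPM in control cells (-1.43 ± 0.25, adjusted p = 0.0168). With DESeq2 it did not pass (adjusted p = 0.0616). In all 3 peaks both Hira values were below both controls.

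Other Jun peaks showed less even hairpins. At 92.3 kb upstream the level was 4.79 and 7.70 CPM in Hira cells against 13.0 and 11.99 CPM in control cells (-1.03 ± 0.26, adjusted p = 0.039). At 6.32 kb downstream it was 0.646 and 1.65 CPM in Hira cells, which is only 9.5 and 14.5 tags, against 3.04 and 3.23 CPM in control cells (-1.58 ± 0.40, adjusted p = 0.0391), and it did not pass with DESeq2 (adjusted p = 0.113). One Jun peak went up, 132 kb upstream and so next to the falling one at 133 kb, with 7.75 and 5.02 CPM in Hira cells against 2.63 and 2.57 CPM in control cells (1.31 ± 0.29, adjusted p = 0.0271). Of the 3 distal Jun peaks at 30 CPM or more in the controls, the one at 133 kb fell and the other two were level. The peak 109 kb upstream had 76.3 and 76.6 CPM in Hira cells and 73.0 and 73.0 CPM in control cells, and the peak 53.8 kb upstream had 39.1 and 38.9 CPM in Hira cells and 37.5 and 39.0 CPM in control cells.

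Summed over all 18 peaks, Jun accessibility was 415.5 and 410.8 CPM in Hira cells against 418 and 429 CPM in control cells. The log2 ratios to the pooled controls were -0.03 under shHIRA I and -0.04 under shHIRA II. Among 4927 genes with at least 5 tested peaks, the summed ratios nearest to these were those of Cds2, Zfat and Myo7a, at log2 distances of 0.003, 0.005 and 0.007, and 443 genes lay within 0.1.

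**Figure D3:**
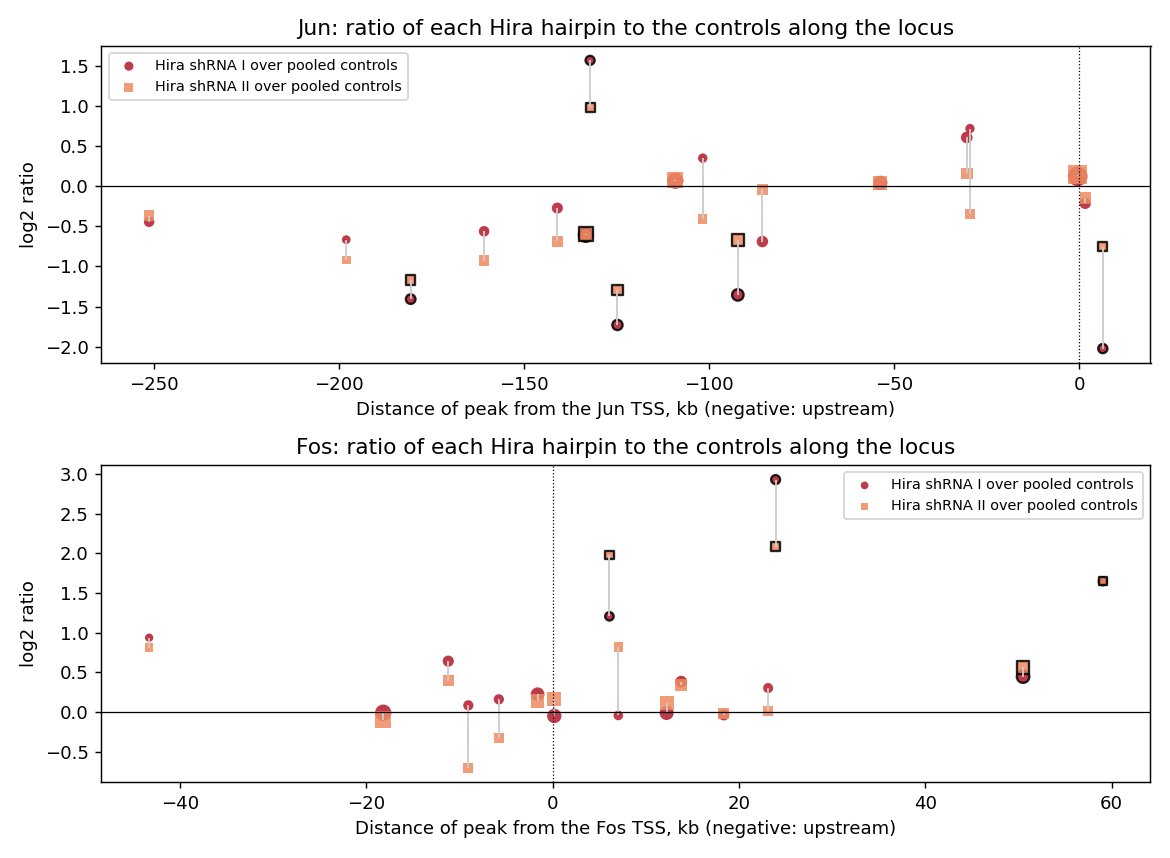
Log2 ratio of each Hira hairpin to the pooled controls for every Jun peak (top) and Fos peak (bottom), by distance from the TSS in kb, with larger symbols for more accessible peaks and black outlines for peaks that passed. At Jun the outlined points are lower at 5 of 6 peaks, most of them beyond 80 kb upstream. At Fos the 4 outlined peaks of 16 are higher and all downstream.

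At Fos, whose protein is the classical partner of JUN, the 4 called peaks all rose and all lie downstream of the gene. They are 25% of its 16 peaks, with 0 lower, against 14.4% higher and 11% lower of all peaks. The largest AP-1 change was 23.9 kb downstream (chr12:85497391-85498260), with 19.5 and 10.7 CPM in Hira cells against 2.39 and 2.70 CPM in control cells. Both hairpins were several-fold above the controls, and shHIRA I was further out (log2 fold change 2.59 ± 0.34, adjusted p = 0.0125). A weak peak 59.0 kb downstream had 3.06 and 2.97 CPM in Hira cells against 0.885 and 1.07 CPM in control cells (1.65 ± 0.26, adjusted p = 0.0147), and it did not pass with DESeq2 (adjusted p = 0.0711). Nearer the gene, 6.10 kb downstream, the level was 3.50 and 5.99 CPM in Hira cells against 1.70 and 1.29 CPM in control cells (1.62 ± 0.36, adjusted p = 0.0279). Here shHIRA II was the higher of the Hira libraries.

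The fourth Fos peak, 50.5 kb downstream and annotated to an RSINE1 repeat, had 27.5 and 29.7 CPM in Hira cells against 20.2 and 20.2 CPM in control cells. Its rise was small (0.50 ± 0.10, adjusted p = 0.0251), and it did not pass with DESeq2 (adjusted p = 0.11) or with the library sizes behind the authors' fold changes (adjusted p = 0.489). The strongest Fos peak, 18.2 kb upstream, was level, with 74.8 and 70.3 CPM in Hira cells and 73.8 and 77.4 CPM in control cells (-0.06 ± 0.07, adjusted p = 0.589). Summed over 16 peaks, Fos stood at 316 and 307 CPM in Hira cells against 268 and 275 CPM in control cells.

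Fosl1, which encodes FRA1, a FOS protein under strong MAP kinase control, rose 2.60 kb upstream (chr19:5444746-5445461). That peak had 22.1 and 16.9 CPM in Hira cells against 7.51 and 7.88 CPM in control cells, and both hairpins were more than 2-fold above the controls (log2 fold change 1.35 ± 0.18, adjusted p = 0.0127). The far weaker TSS peak described above did not follow it.

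Junb, a JUN gene that can oppose Jun, rose at the 2 peaks just upstream of its TSS. The peak 1.26 kb upstream (chr8:84979768-84980242) had 30.7 and 18.5 CPM in Hira cells against 11.99 and 9.64 CPM in control cells (1.19 ± 0.27, adjusted p = 0.0284). The peak 2.44 kb upstream had 30.6 and 24.2 CPM in Hira cells against 17.01 and 15.9 CPM in control cells (0.74 ± 0.15, adjusted p = 0.0225), and did not pass with the authors' scaling (adjusted p = 0.176). The most accessible Junb site, 2.44 kb downstream at its termination site, had 80.2 and 78.9 CPM in Hira cells and 81.4 and 79.3 CPM in control cells (-0.01 ± 0.06, adjusted p = 0.897).

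Jund had opposite calls at neighbouring peaks upstream of the gene. The peak 9.91 kb upstream (chr8:70687465-70688194) rose, with 18.3 and 11.7 CPM in Hira cells against 4.31 and 4.36 CPM in control cells (1.80 ± 0.26, adjusted p = 0.0134). The peak 7.48 kb upstream (chr8:70689869-70690641), annotated to a B1_Mur1 repeat, fell, with 18.0 and 18.4 CPM in Hira cells against 32.0 and 33.0 CPM in control cells (-0.83 ± 0.10, adjusted p = 0.0125). Summed over its 3 peaks Jund was level, at 156 and 146 CPM in Hira cells against 147 and 147 CPM in control cells.

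Batf3 rose at a peak 27.9 kb downstream (chr1:191126059-191126520), which had 14.3 and 10.5 CPM in Hira cells against 4.31 and 4.30 CPM in control cells (1.54 ± 0.22, adjusted p = 0.0131). Batf, best known from T and B lymphocytes, had 4 weak peaks and no call. At its nearest peak the hairpins went opposite ways, with 7.58 CPM under shHIRA I and 3.82 CPM under shHIRA II against 4.07 and 4.58 CPM in control cells (0.45 ± 0.35, adjusted p = 0.388).

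**Figure D4:**
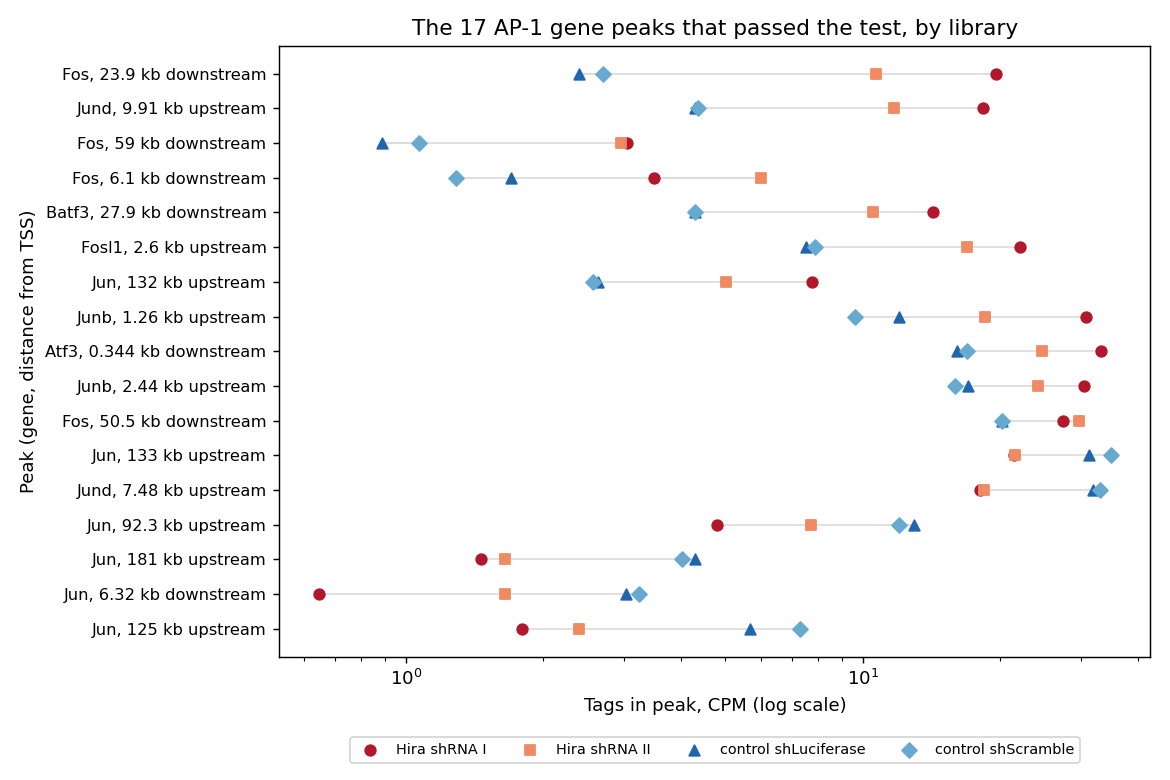
The 17 AP-1 peaks that passed, ordered by log2 fold change, with the CPM of each library on a log axis and the gene and distance from the TSS on the y axis. The Hira points lie right of the control points in 11 rows and left of them in 6, and the 2 control points of a row lie close together.

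The hairpins were compared without a test, since each has 1 library. ShHIRA I lay further from the pooled controls than shHIRA II at 40 of 64 AP-1 peaks (62.5%, against 66.6% of all peaks) and at 15 of the 17 called ones (88.2%, against 79.5% of all called peaks). The hairpins had opposite signs at 16 of 64 (25%, against 22.1% of all peaks). Both hairpins were at least 2-fold above the pooled controls at 6 AP-1 peaks and at least 2-fold below at 2, against 8.96% and 4.92% of all peaks. Summed over all 64 peaks the log2 ratio to the controls was 0.15 under shHIRA I and 0.07 under shHIRA II.

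Other tests moved the count. DESeq2 called 13 of the 64 AP-1 peaks, 9 higher and 4 lower, against 10.7% higher and 7.02% lower of all peaks (17.7% together). The likelihood ratio test called 22, 14 higher and 8 lower, against 18.3% and 15.9% (34.2% together), and edgeR's newer quasi-likelihood estimate 20, 13 higher and 7 lower, against 16.8% and 14.1% (30.8% together). The calls also depend on how the controls enter. The calls were lost when either control library was left out. They rose, over all peaks as over AP-1 peaks, when either Hira library was left out. With the controls summed to 1 sample, the likelihood ratio test called 8 AP-1 peaks, against 12.2% of all peaks (7.51% higher, 4.64% lower), and the newer estimate called 9, 6 higher and 3 lower, against 14.1% (8.43% higher, 5.65% lower). The 8 were the Fos peaks at 23.9 and 59.0 kb, the Fosl1 peak, the Junb peak at 1.26 kb, the Jund peak at 9.91 kb and the Batf3 peak as higher, and the Jun peaks at 181 and 125 kb as lower.

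Genes linked to AP-1 were counted in the same fit. Of 155 peaks at 21 related bZIP genes, 45 were higher and 11 lower (29% and 7.1%, against 14.4% and 11% of all peaks), with a median log2 fold change of 0.13. Maf, a bZIP factor of the large MAF branch, had 13 higher and 4 lower of 43 peaks and the lowest p of the rises in this list, 12.3 kb from its TSS, with 35.8 and 40.8 CPM in Hira cells against 7.87 and 7.31 CPM in control cells (2.33 ± 0.13, adjusted p = 0.0125). Bach2, a bZIP repressor, had 10 higher and 0 lower of 26. Creb1, which encodes the cyclic AMP response element binder, held the lowest p of the falls, 50.4 kb from its TSS, with 0.578 and 0.570 CPM in Hira cells against 4.04 and 3.74 CPM in control cells (-2.80 ± 0.29, adjusted p = 0.0125). Under the authors' scaling the bZIP counts were 34 higher and 21 lower, against 11.1% and 19% of all peaks, and the median was -0.12.

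Upstream of AP-1, 21 MAP kinase pathway genes had 11 higher and 13 lower of 117 peaks (9.4% and 11.1%, against 14.4% and 11% of all peaks), with a median of -0.08. Under the authors' scaling these counts were 10 and 25, against 11.1% and 19% of all peaks, and the median was -0.34. Rps6ka3, an ERK-activated kinase, rose 98.9 kb from its TSS, with 10.5 and 6.22 CPM in Hira cells against 0.909 and 0.879 CPM in control cells (3.23 ± 0.36, adjusted p = 0.0125). Map2k6, which activates p38 kinases, fell 189 kb from its TSS, with 2.58 and 2.17 CPM in Hira cells against 6.10 and 6.15 CPM in control cells (-1.35 ± 0.23, adjusted p = 0.0165). The 9 genes of SRF and its partners, which drive Fos in response to serum, had 13 higher and 6 lower of 66 peaks. These are 19.7% and 9.09%, against 14.4% and 11% of all peaks, with a median of 0.00. Under the authors' scaling the counts were 8 and 14, against 11.1% and 19% of all peaks, and the median was -0.25. Mrtfb, an SRF coactivator, rose at 4.33 kb, with 15.1 and 11.5 CPM in Hira cells against 2.15 and 2.32 CPM in control cells (2.58 ± 0.23, adjusted p = 0.0125). Elk3, a ternary complex factor, fell at 39.8 kb, with 3.64 and 5.47 CPM in Hira cells against 15.9 and 14.2 CPM in control cells (-1.75 ± 0.23, adjusted p = 0.0126).

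Downstream, 16 of 20 listed AP-1 target genes had a peak, and of their 84 peaks 25 were higher and 6 lower (29.8% and 7.14%, against 14.4% and 11% of all peaks), with a median of 0.18. Under the authors' scaling these counts were 13 and 12, against 11.1% and 19% of all peaks, and the median was -0.075. Lif, a cytokine gene, had 7 higher and 0 lower of 13 peaks. Cd44, an adhesion receptor gene, had 0 higher and 3 lower of 7. Ccnd1, the cyclin D1 gene, had 5 higher and 1 lower of 16, the lower one 80.6 kb from the TSS with 1.02 and 1.08 CPM in Hira cells against 4.36 and 5.02 CPM in control cells (-2.12 ± 0.27, adjusted p = 0.0125).

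**Figure D5:**
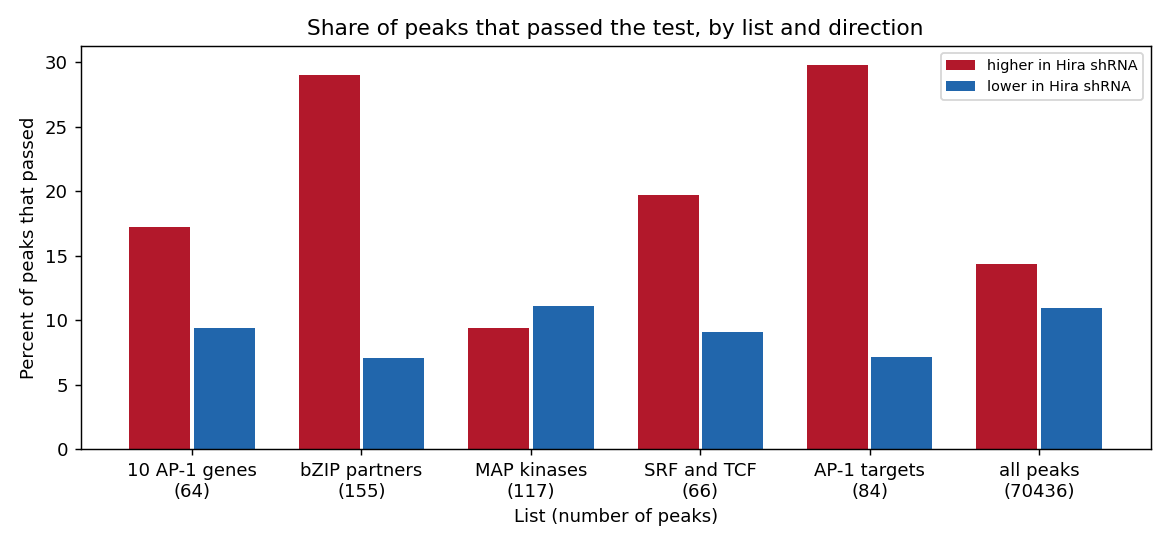
Percent of peaks that passed as higher (red) and lower (blue) in Hira shRNA cells, for the AP-1 genes, 4 lists of linked genes and all peaks, with the number of peaks in brackets. The bZIP partners (29% higher) and AP-1 targets (29.8% higher) stand above all peaks (14.4% higher), and the AP-1 genes themselves at 17.2% higher lie near it.

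Markers of cell types also had calls, to be read against 14.4% higher and 11% lower of all peaks, or 11.1% and 19% under the authors' scaling. Melanoblast and melanocyte markers had 9 higher and 36 lower of 113 peaks (7.96% and 31.9%; 5 and 44 under the authors' scaling), with summed levels of 1279 and 1487 CPM in Hira cells against 1634 and 1623 CPM in control cells. Fibroblast markers had 11 higher and 4 lower of 51 (21.6% and 7.84%; 11 and 10 under the authors' scaling), with 486 and 377 CPM in Hira cells against 325 and 315 CPM in control cells, and Dpt had no peak. Immune markers had 2 higher and 0 lower of 6 under both scalings (33.3% higher), with 53.2 and 47.0 CPM in Hira cells against 35.7 and 34.6 CPM in control cells, and their defining genes Ptprc and Cd3e had no peak. Keratinocyte markers had 1 higher and 3 lower of 14 (7.14% and 21.4%; 0 and 3 under the authors' scaling), with 116 and 129.8 CPM in Hira cells against 134 and 139 CPM in control cells, and Krt5, Krt15 and Krt1 had no peak. Schwann cell markers had 0 higher and 5 lower of 35 (14.3% lower; 0 and 12 under the authors' scaling), with 357 and 448 CPM in Hira cells against 465 and 471 CPM in control cells. Their part in the AP-1 values was not tested.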

How the data were processed

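ATAC-seq libraries of melb-a cells, 1 per hairpin, were compared between Hira and control hairpins. Build mm10 and the tools MACS2 2.2.9.1, edgeR 3.38.4, cutadapt 2.3, Picard and Bowtie2 are listed, without roles, in the submitters' processing notes; duplicate removal, transposase shift and multi-mapping are not given in the sources used here. The authors deposited 1 peak set with tags per peak and library, which are estimated counts in steps of 0.5, rounded here before testing. They also deposited log2 fold changes, a log2 mean level with p-values and the likelihood ratio statistic of each peak as a score. Control columns were matched to samples by hairpin name and Hira columns by numeral alone. The table calls the Hira columns knockouts, while the labels describe knockdown hairpins, so which hairpin a Hira column holds rests on that numeral.

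All 70436 peaks were fitted with edgeR 4.0.16 in R 4.3.3 (quasi-likelihood test, TMM factors, filterByExpr, Benjamini-Hochberg over 70429 peaks, adjusted p under 0.05), tested first on simulated data. CPM are TMM-scaled, and the ratio of a hairpin to the pooled controls has a prior of 2 tags. Each standard error is the size of the log2 fold change divided by the root of F. It comes from the fit of all 4 libraries, which takes the controls as separate samples, and is not the spread of the hairpins alone. Tag totals from 8910983 to 20716859.5 make shHIRA II the least precise library. The authors' scaling was recovered from 46005 peaks with more than 30 tags (residual SD 0.0142 log2). DESeq2 1.42.0, other scalings, filters, thresholds and left-out libraries were alternatives. Members and lists were chosen with earlier results of these data known. Named peaks are, per AP-1 gene, the one nearest the TSS, the one with most tags and the called one with the lowest p per direction, then the largest changes, the lowest p per direction in each linked list, and the 3 genes nearest to Jun in summed ratios. All other called AP-1 peaks are given as well. One item that the rule names is not reported here. Peak sequences were not used. Promoters came from RefSeq (GRCm38.p6), with 9 of 10 genes matched. Figures were drawn with matplotlib 3.10.9.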

Additional observations from a re-analysis of the deposited data

How the results depend on the processing

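The deposited columns number the libraries 1 and 2 in each arm, while the labels number the Hira hairpins and not the controls, and nothing says that a number marks a shared batch. Deviations of same-numbered libraries from their group means had a correlation of -0.0061 across peaks and 0.15 across AP-1 peaks, over 2 pairs whose deviations mirror each other. The controls did not differ beyond counting noise, so these values cannot show whether the numbers mark pairs. The numbers were not taken as pairs in the main test. A fit that adds these numbers as a replicate block, chosen after seeing the data, called 17 AP-1 peaks (11 higher, 6 lower) and 18946 over all peaks. The 17 AP-1 calls (11 higher, 6 lower) and the 17840 calls over all peaks kept within 1.5 times under DESeq2 (13 and 12450), total tags (17 and 18004), no filter (17 and 17853), the likelihood ratio test (22 and 24092), edgeR's newer quasi-likelihood estimate (20 and 21723) and the authors' scaling (17 and 21195). With the controls summed to 1 sample there were 0 AP-1 calls, 0 higher, 0 lower and 0 over all peaks. The likelihood ratio test then gave 8 (6 higher, 2 lower) and 8558 over all peaks, and the newer estimate, chosen after seeing the data, 9 (6 higher, 3 lower) and 9919. Requiring an adjusted p under 0.01 and at least a doubling or halving (log2 of 1) left 0 of each, and a 2-fold change in both hairpins 8 (6 higher, 2 lower). Leaving out each library in turn gave 0 to 42998 calls over all peaks and 0 to 40 AP-1 calls, 0 to 27 of them higher and 0 to 13 lower. The 0 came without either control library. The counts rose without either Hira library, over all peaks as over AP-1 peaks. Leaving out a Hira library leaves a lone Hira sample, taken to vary as the controls do, which by construction narrows the error.

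Of the 20 named peaks that passed, including those of the linked lists, 19 still passed with DESeq2, 17 under the authors' scaling, 13 and 14 with the controls summed (likelihood ratio and newer estimate) and 0 with the controls summed in the main test. These 20 were named for a low p or a large change, which favours passing again. Of all 17 called AP-1 peaks, 9 higher and 4 lower passed with DESeq2, and 8 higher and 6 lower under the authors' scaling. No called peak changed sign in these fits. The authors' scaling turned the sign at nearest peaks that had not passed: Fos -0.19, Fosl2 -0.084, Jun -0.12 and Jund -0.17. Leaving out 1 library turned the sign at the Fos TSS (range -0.052 without shHIRA II to 0.16 without shHIRA I), Fosl1 TSS (-0.47 without shHIRA I to 0.17 without shHIRA II), Junb TSS (-0.32 without shHIRA II to 0.17 without shHIRA I), the Junb peak 2.44 kb downstream (-0.032 without shScramble to 0.0071 without shLuciferase) and Batf (-0.14 without shHIRA I to 0.83 without shHIRA II). The cause was not tested. Depth limits the weakest peaks most, such as the Jun peak with 9.5 tags in a Hira library.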

Other observations

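Jdp2, which encodes a bZIP repressor that pairs with JUN proteins, lies between Fos and Batf on chromosome 12, and its 14 peaks had 5 higher and 0 lower calls, against 14.4% higher and 11% lower of all peaks. The gene was singled out for its place after its values were seen. The peak 23.9 kb downstream of its TSS had 7.88 and 7.13 CPM in Hira cells against 1.79 and 1.91 CPM in control cells (log2 fold change 2.02 ± 0.23, adjusted p = 0.0125). The peak 19.6 kb downstream had 11.2 and 5.87 CPM in Hira cells against 1.77 and 2.01 CPM in control cells (2.21 ± 0.37, adjusted p = 0.0155). Its 2 promoter peaks were level, the stronger with 27.2 and 24.6 CPM in Hira cells and 25.2 and 25.7 CPM in control cells. Along this stretch, as at Fos, the calls lie away from the promoters. This is not particular to the stretch, since 7.45% of all peaks within 1 kb of a TSS passed and 29% of those beyond.

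At several uncalled AP-1 peaks shHIRA I stood above both controls and shHIRA II below both. The 3 given here were chosen from them after seeing the values. How often this order occurs over all peaks was not counted. The hairpins had opposite signs at 25% of AP-1 peaks and 22.1% of all peaks. The Atf3 peak 6.74 kb upstream had 4.31 CPM under shHIRA I and 1.88 CPM under shHIRA II, against 2.54 and 2.86 CPM in control cells. The Jun peak 29.6 kb upstream had 5.71 CPM under shHIRA I and 2.57 CPM under shHIRA II, against 4.07 and 2.76 CPM in control cells. The Fos peak 9.04 kb upstream had 6.66 CPM under shHIRA I and 3.71 CPM under shHIRA II, against 6.25 and 6.50 CPM in control cells. Peaks with the reverse order include those at the Fos TSS, 6.1 kb downstream of the Fosb TSS and at the Junb TSS. The Junb TSS peak had 9.99 CPM under shHIRA I and 14.0 CPM under shHIRA II, against 12.04 and 13.1 CPM in control cells. Each hairpin has 1 library, so whether these differences belong to the hairpin or the library cannot be told apart.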
